A study of Mus musculus with 2 samples.

Results

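Cyclins, cyclin-dependent kinases (CDKs), CDK inhibitors, the enzymes that switch CDKs on or off and the pocket proteins form the engine of the cell cycle. Of the 21461 nuclear protein-coding genes measured, 38 genes of this engine, chosen by name, are described here in mouse erythroblasts, which still carry a nucleus and give rise to red blood cells. All 38 matched a row of the gene tables by identifier. The study has 1 group, total RNA depleted of ribosomal RNA from primary erythroblasts of C57BL/6J males at 5 to 6 weeks, with 100 ng of RNA per library and no treatment or allele named in the labels. The isolation protocol cited in the labels is for bone marrow, and the labels give a different size range for each library. It was measured in 2 biological replicates, which are separate biosamples listed under the same donor entry. Their spread may thus be technical in part. No conditions are contrasted and no p-value is given, and the questions are which members of each family these cells express, at what level, and through which transcripts.

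A cyclin binds and activates a CDK. D-type cyclins with Cdk4 or Cdk6 start the phosphorylation of the pocket proteins, which hold E2F transcription factors in check, and E-type and A-type cyclins with Cdk2 carry the cell into and through DNA replication. B-type cyclins with Cdk1 drive mitosis after CDC25 phosphatases have removed the phosphates placed by Wee1 and Pkmyt1. Inhibitors of the Cip/Kip and INK4 families and the anaphase-promoting complex with its activator Fzr1 oppose these kinases. Erythroblasts divide several times while they fill with hemoglobin, and then leave the cell cycle before they expel the nucleus.

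Replicate 1 held 37312624 expected counts and replicate 2 held 22464724, of which the 38 genes took 92947 and 47622. Levels are given as coding-scaled TPM, the deposited TPM (transcript abundance per length) divided by its sum over nuclear protein-coding genes and multiplied by 1000000, and errors are SD with n = 2. That sum includes the globins: without the adult globins and Gm10800 in it every level is larger by 1 common factor per library, with Fzr1 at a mean of 798 in place of 500 and Ccnd3 at 110.0 in place of 68.9. The labelled cell type was seen in its markers: all 10 erythroblast markers reached 1 deposited TPM in each library. Their summed level was 403550 in replicate 1 and 345670 in replicate 2, of which Hba-a2 alone held 283079 and 235843. The median of these markers was 5200 and 6017. Markers of neutrophils and their precursors were present too, with 13 of 14 at that TPM and summed levels of 20778 and 20224. Their median was 466 and 329. S100a8 stood at 8719 and 7420, near the erythroblast marker Slc4a1 at 6811 and 7957. Mpo stood at 1068 and 640, above the erythroblast marker Klf1 at 123 and 88.9. Markers of monocytes and macrophages (8 of 10) summed to 2603 and 2171. B cell markers summed to 9.51 and 3.77, with Pax5 and Igll1 at 0 counts. T and NK cell markers summed to 26.3 and 18.7, with Cd3d and Cd8a at 0 counts. Dividing precursors of any of these cells express the same engine, and their part in the levels below was not tested. In such bulk RNA, fewer cells of a type and less RNA per cell cannot be told apart.

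Most of the engine was expressed, and a few brakes and activators had the highest levels. With 1 deposited TPM in each library as the limit, 24 of 38 members (63.2%) were detected, against 20.3% of all nuclear protein-coding genes. At 1 coding-scaled TPM in both libraries, 33 (86.8%) passed, against 43.9%, and at 10 it was 27, against 23.0%. The median member stood at 29.3 in replicate 1 and 33.5 in replicate 2, where the median of all nuclear protein-coding genes was 0.533 and 0.580. Fzr1, Cdc25b, Cdkn1b and Rb1 together held 55.5% and 57.0% of the summed coding-scaled TPM of the 38 genes. Ccna1, Cdkn2a and Cdkn2b had 0 counts in both libraries, which allows up to 0.0804 and 0.134 CPM at 3 counts per library. Ordered by mean level, 24 of the 35 neighbouring pairs had overlapping values in the libraries, so the order within those pairs is not resolved.

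**Figure D1:**
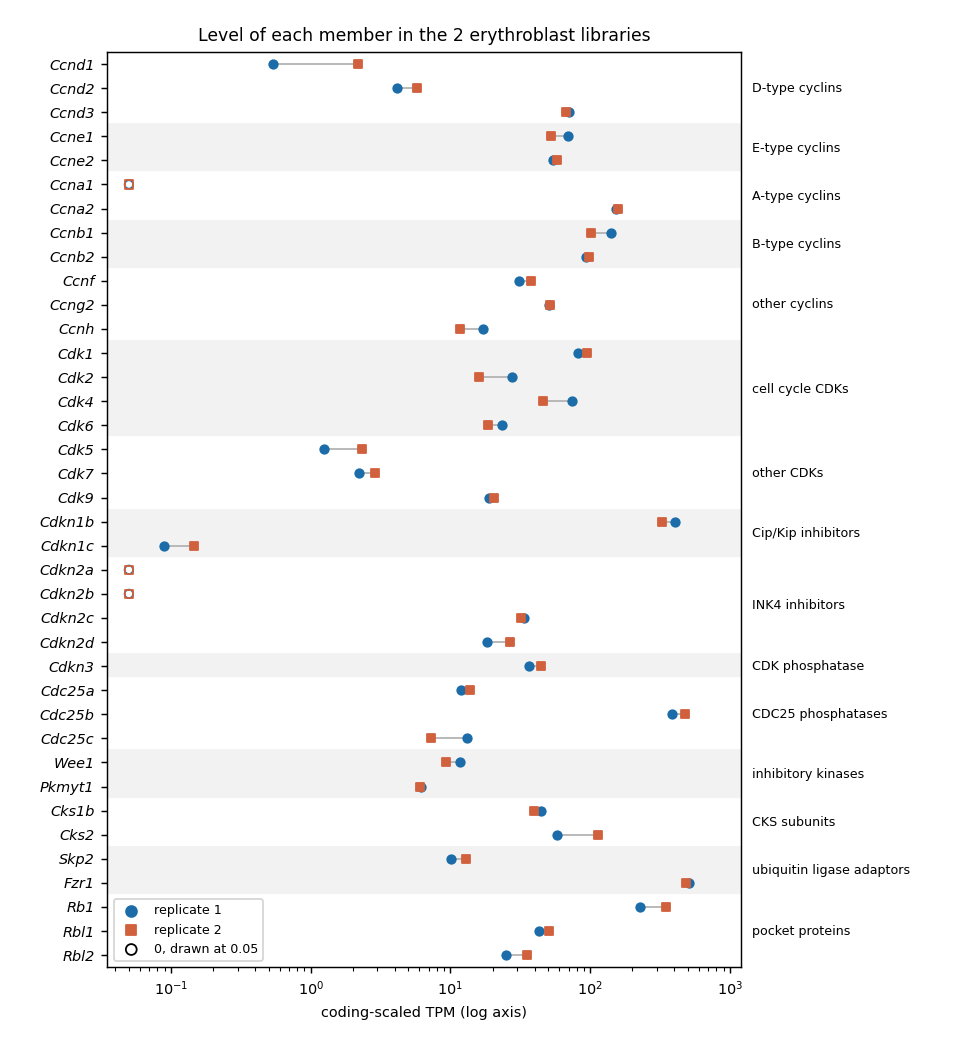
Coding-scaled TPM (log axis) of each of the 38 members in replicate 1 (circles) and replicate 2 (squares), grouped by role; open symbols at 0.05 stand for a value of 0. Fzr1, Cdc25b, Cdkn1b and Rb1 lie above 200 in both libraries, and Ccna1, Cdkn2a and Cdkn2b are at 0.

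Among the D-type cyclins, which link growth signals to the cell cycle, Ccnd3 was nearly alone. It stood at 70.2 coding-scaled TPM in replicate 1 and 67.6 in replicate 2 (68.9 ± 1.85), at percentile 89.2 of the 12895 protein-coding genes with a TPM above 0 in either library. Ccnd2 had 4.18 and 5.80, and Ccnd1 had 0.533 and 2.18 from only 28 and 59 counts. Ccnd3 thus took 93.7% and 89.4% of D-type cyclin TPM in the 2 libraries. The D-type ranges do not overlap: each library put Ccnd3 above Ccnd2 and Ccnd2 above Ccnd1. Ccnd3 spans chromosome 17, 47505051 to 47599691 on GRCm38.

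The E-type cyclins, which activate Cdk2 at the start of replication, were shared almost evenly. Ccne1 stood at 69.2 and 52.4 coding-scaled TPM and Ccne2 at 53.8 and 58.2. Their order turned between the libraries, with Ccne1 at 56.3% of the pair in replicate 1 and 47.4% in replicate 2. The spread between libraries therefore does not place one above the other.

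Ccna2, the A-type cyclin of dividing body cells, was the highest cyclin among the 38 genes, at 152 and 159 coding-scaled TPM (156 ± 4.75). The germline A-type cyclin Ccna1 was at 0. Of the mitotic B-type cyclins, Ccnb1 stood at 140 and 102 and Ccnb2 at 92.9 and 98.6. Ccnb1 was above Ccnb2 in both libraries by this measure, with 60.1% and 50.8% of the pair, but not when only protein-coding transcripts were counted, as given below. Ccnf, a substrate adaptor of a ubiquitin ligase, had 30.9 and 37.4. Ccng2, a cyclin linked to cell cycle arrest, had 50.4 and 51.3. Ccnh, which activates Cdk7, had 17.2 and 11.7.

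Of the 4 CDKs of the cell cycle, Cdk1 and Cdk4 stood above Cdk2 and Cdk6 when all transcripts of a gene were summed. Cdk1, the mitotic kinase (chromosome 10, 69335146 to 69352938), had 81.9 and 95.6 coding-scaled TPM. Cdk4 had 74.4 and 46.3. The replication kinase Cdk2 had 27.7 and 15.95, and Cdk6, the other partner of D-type cyclins, had 23.5 and 18.7. Cdk2 and Cdk6 overlapped, while Cdk1 stood above both of them in each library. The ratio of Cdk4 to Cdk6 was 3.16 and 2.47 by TPM. Among the other kinases Cdk9, which releases paused RNA polymerase II, had 19.0 and 20.6, Cdk7, which activates other CDKs, had 2.22 and 2.90, and Cdk5, best known from neurons, had 1.24 and 2.32.

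Cdkn1b, which encodes the Cip/Kip inhibitor p27, had the highest level of the CDK inhibitors among the 38 genes. It stood at 407 and 328 coding-scaled TPM (368 ± 56.4, percentile 97.3) from 21328 and 9447 counts, and spans chromosome 6, 134920401 to 134925513. Its relative Cdkn1c had 3 and 2 counts, and Cdkn1a, also of this family, is not among the 38 genes. The TPM of Cdkn1b was 1.96 and 1.86 times the summed TPM of Cdk1, Cdk2, Cdk4 and Cdk6 in replicates 1 and 2. Over protein-coding transcripts only, this ratio was 3.83 and 4.18. The TPM of Cdkn1b was 12.04 and 10.3 times that of Cdkn2c.

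Of the 4 INK4 inhibitors, which bind Cdk4 and Cdk6, only Cdkn2c and Cdkn2d had any counts. Cdkn2c, which encodes p18, stood at 33.9 and 31.8 coding-scaled TPM, and Cdkn2d, which encodes p19, at 18.1 and 26.7. Cdkn2c was above Cdkn2d in both libraries, with 65.1% and 54.3% of INK4 TPM. Cdkn2a and Cdkn2b, which lie next to each other on chromosome 4 and are known for their role in senescence, were at 0 counts. Cdkn3, a phosphatase that acts on CDKs and not an inhibitor of the INK4 type, had 36.5 and 44.7.

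Among the enzymes that set the inhibitory phosphates of CDKs, the remover Cdc25b far exceeded the kinases that add them. Cdc25b (chromosome 2, 131186949 to 131198497) stood at 382 and 480 coding-scaled TPM (431 ± 69.5, percentile 97.7), and held 93.8% and 95.8% of CDC25 TPM. Cdc25a had 11.996 and 13.8, and Cdc25c had 13.1 and 7.25. Wee1, the nuclear inhibitory kinase, had 11.6 and 9.28, and Pkmyt1, its membrane-bound relative, had 6.13 and 6.09. The TPM of Cdc25b was 21.5 and 31.2 times that of Wee1 and Pkmyt1 together. Restricted to protein-coding transcripts, this ratio was 11.05 and 12.5.

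Small CDK-binding subunits and 2 ubiquitin ligase adaptors complete the kinase side. Cks2 stood at 57.8 and 113 coding-scaled TPM and Cks1b, which also serves Skp2 in the destruction of p27, at 44.4 and 39.3. Skp2 itself, the adaptor that marks p27 for destruction, had 10.1 and 12.9. Fzr1, the activator of the anaphase-promoting complex in G1, was the highest of all 38 genes when all transcripts were summed, at 512 and 488 (500 ± 17.0, percentile 98.1). Over protein-coding transcripts only, Cdkn1b stood above it, as given below. It spans chromosome 10, 81366222 to 81378516. The libraries put Fzr1 above Cdc25b by a narrow margin, 488 against 480 at the closest.

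The pocket proteins were led by Rb1. Rb1 (chromosome 14, 73183673 to 73325822) stood at 227 and 350 coding-scaled TPM (288 ± 87.3). Its relative Rbl1, also called p107, stood at 42.9 and 50.6, and Rbl2, also called p130, at 25.1 and 35.2. Rb1 held 76.9% and 80.3% of pocket protein TPM. The order Rb1, Rbl1, Rbl2 was the same in both libraries.

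In 9 of 11 families the same member led in both libraries with over 50% of the family's TPM. These were Ccna2, Ccnb1, Ccnd3, Cdkn1b, Cdkn2c, Cdc25b, Wee1, Cks2 and Rb1. The A-type, B-type and E-type cyclins, Cip/Kip inhibitors, inhibitory kinases and CKS subunits hold only 2 genes each here. In such a pair 1 gene always holds 50% or more of a library, so only the sameness of the leader could vary. By expected counts, which are not per length, Cks1b led in replicate 1 and Cks2 in replicate 2, and Ccne2 led the E-type cyclins in both. Among the cell cycle CDKs, Cdk6 led by counts in replicate 1, with 1050 against 852 for Cdk1, and Cdk1 led in replicate 2. By TPM the exceptions were the E-type cyclins, whose leader turned, and the cell cycle CDKs, where Cdk1 led with 39.5% and 54.2%. These shares are ratios within a library, so the unequal share of protein-coding genes in the deposited TPM of the libraries does not enter them.

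**Figure D2:**
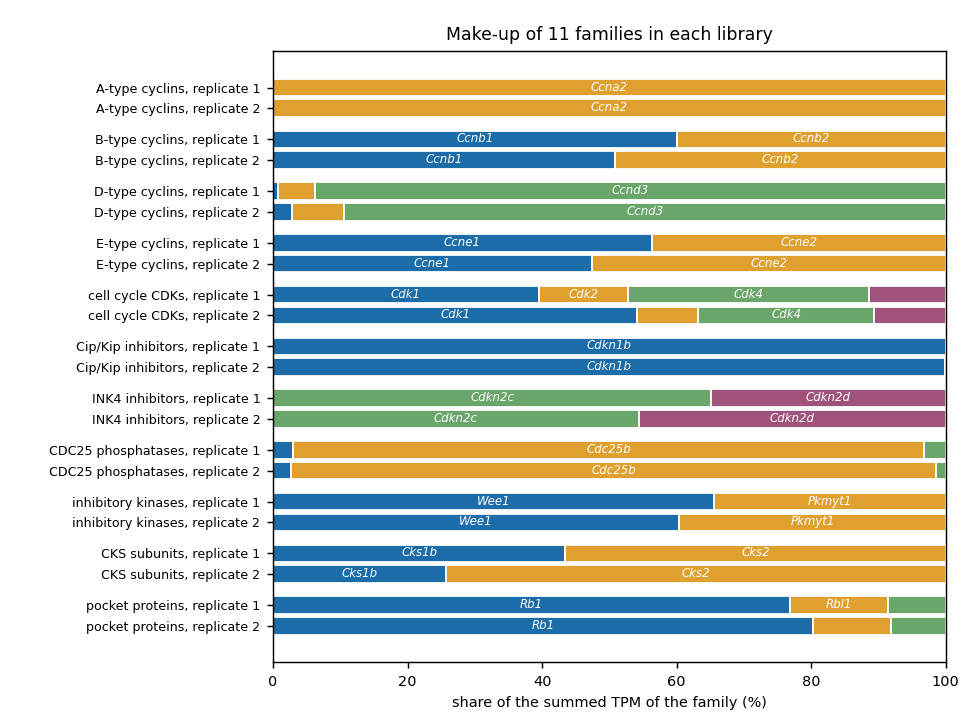
Share of each member in the summed TPM of its family (%), 1 bar per family and library, with each segment a gene; segments over 12% wide carry the gene's name. Families hold only genes among the 38. Ccna2, Cdkn1b, Cdc25b and Ccnd3 fill 89.4% or more of their families in both libraries, while Ccne1 and Ccne2 split theirs.

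The level of a gene is the sum of its transcripts, and for several members much of that sum lay in transcripts the annotation classes as retained intron. Among the 34 members with at least 20 counts in both libraries, 11 (32.4%) had 10% or more of their TPM in such transcripts in both libraries, against 17.5% of 9484 protein-coding genes. Only 16 of the 34 have such a transcript annotated. Among these, 11 of 16 is 68.8%, against 40.5% of the 4093 protein-coding genes that have one. Retained intron transcripts held 65.4% and 70.1% of the TPM of Cdk1, 64.0% and 45.3% of Cdk4, 48.6% and 60.1% of Cdc25b, 45.0% and 48.8% of Ccnb1 and 41.9% and 48.8% of Fzr1. Cdkn1b, Ccnb2, Cdk2 and Cks2 had none. The class is that of the annotation. Whether these reads came from mRNA that kept an intron or from RNA not yet spliced was not tested.

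The retained stretches are shown at the border where the exon of the main coding transcript ends, with exon bases in lower case and the intron bases read through in capitals. The 6 transcripts shown are of members with a large share in this class or a high level, and were read from the GENCODE M21 transcript sequences.
Fzr1-204, intron 8, chr10:81369956-81369985, minus strand: ggctggtctgagcggGTGAGTGCAGAGGGT
Cdc25b-206, intron 7, chr2:131192674-131192703, plus strand: gagagtgatttaaagGTAAACAGCCTTGGT
Rb1-205, intron 17, chr14:73262514-73262543, minus strand: cttgcatggctttcaGTAAGTGATTAGCTA
Ccnb1-203, intron 4, chr13:100783450-100783479, minus strand: ctccgacaactggagGTCAGTATTGTCATT
Cdk1-204, intron 5, chr10:69345046-69345075, minus strand: tcttcactcgttaagGTAAAGAGTTGCGTG
Rbl1-202, intron 13, chr2:157175513-157175542, minus strand: ccttcctgtgaagaaGTAAGCCAGGGCTAG
Of 16 retained intron transcripts with a mean of at least 10% of their gene, 12 read across such a border with at least 15 bases on each side. In all 12 the intron began with GT, the usual splice donor. The introns are annotated and the letters are those of the reference, so this does not show that reads crossed the border. Ccnb1-204, Cdc25b-207, Cdk4-209 and Rbl1-203 do not read across such a border and are not shown.

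How much intron these transcripts hold varied widely. Only 3 of the 16 hold every intron they touch whole. Fzr1-204 keeps 3 whole introns, 926 of its 2780 bases, and Cdc25b-206 keeps 1 whole intron of 379 bases. In both genes another retained intron form had a larger mean share and holds no whole intron. Fzr1-206 has 348 intron bases in 870, and Cdc25b-207 has 194 in 673. Ccnb1-203 holds 421 bases of an intron of 1681, and Rb1-205 holds 129 of 45749. Cdk1-204 has only 56 intron bases in 475, and Cdk4-209 only 25 in 468. The remaining bases of those 2 short transcripts lie outside the introns of the main coding transcript. Where they fall in its exons, their reads can also come from spliced mRNA, and the split is the estimate of the deposited files. Because TPM divides by length, short transcripts weigh more in TPM than in counts. Retained intron transcripts held 67.8% ± 3.33 of Cdk1 by TPM but 25.5% ± 2.41 by counts, and 54.3% ± 8.18 of Cdc25b by TPM but 17.8% ± 5.67 by counts. For Rb1 the figures were 27.9% ± 13.9 and 3.16% ± 2.42.

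**Figure D3:**
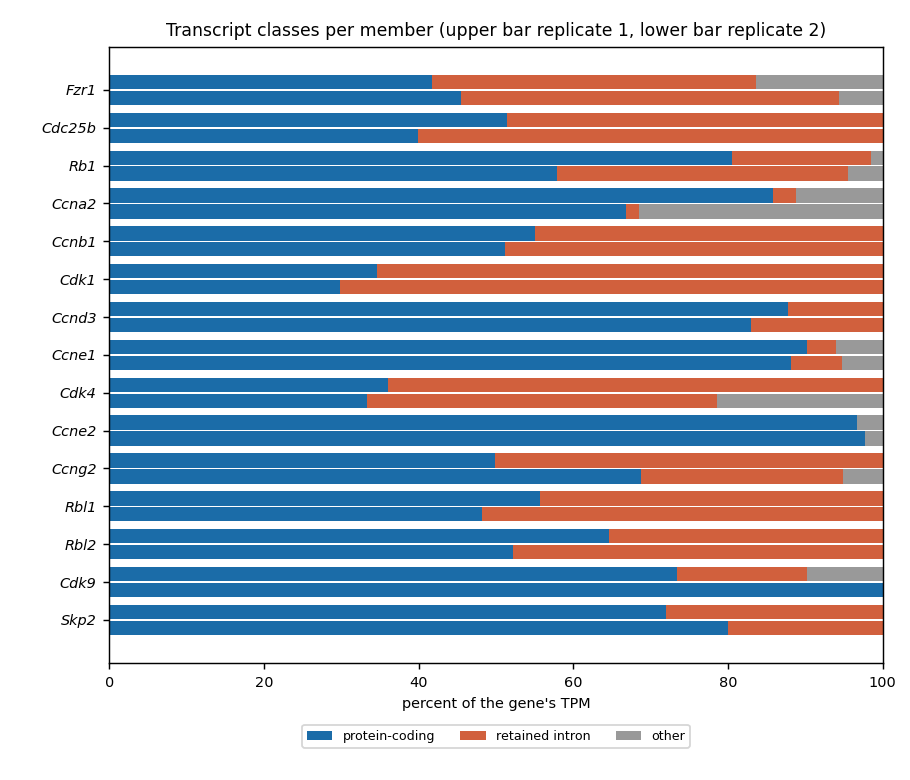
Percent of each gene's TPM in protein-coding, retained intron and other transcripts, for the members with at least 20 counts in both libraries that had any TPM outside protein-coding transcripts, ordered by level; upper bars are replicate 1 and lower bars replicate 2. Retained intron transcripts exceed 60% in both libraries for Cdk1 alone.

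Counting only protein-coding transcripts, on the same scale, changed the order of the CDKs and of the B-type cyclins. Cdk1 had 28.5 ± 0.161 coding-scaled TPM by this measure, against 88.8 ± 9.65 over all transcripts, and Cdk4 had 21.1 ± 8.10 against 60.3 ± 19.9. Cdk2 kept 21.8 ± 8.32 and Cdk6 was at 21.1 ± 3.52, and in replicate 1 Cdk1, Cdk2, Cdk4 and Cdk6 held 26.6%, 26.0%, 25.2% and 22.1% of their sum. In replicate 2 the shares were 36.4%, 20.3%, 19.6% and 23.7%, so Cdk1 still led in both libraries, by a wide margin in replicate 2 only. The ratio of Cdk4 to Cdk6 became 1.14 and 0.828. Ccnb2, at 95.7 ± 4.08, came to stand above Ccnb1, at 64.6 ± 17.5, with 54.7% and 65.4% of the pair. Cdkn1b became the highest of the 38 at 368, above Fzr1 at 218 ± 6.03, Cdc25b at 194 ± 3.48 and Rb1 at 193 ± 14.2. The same 4 genes led by either measure.

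**Figure D4:**
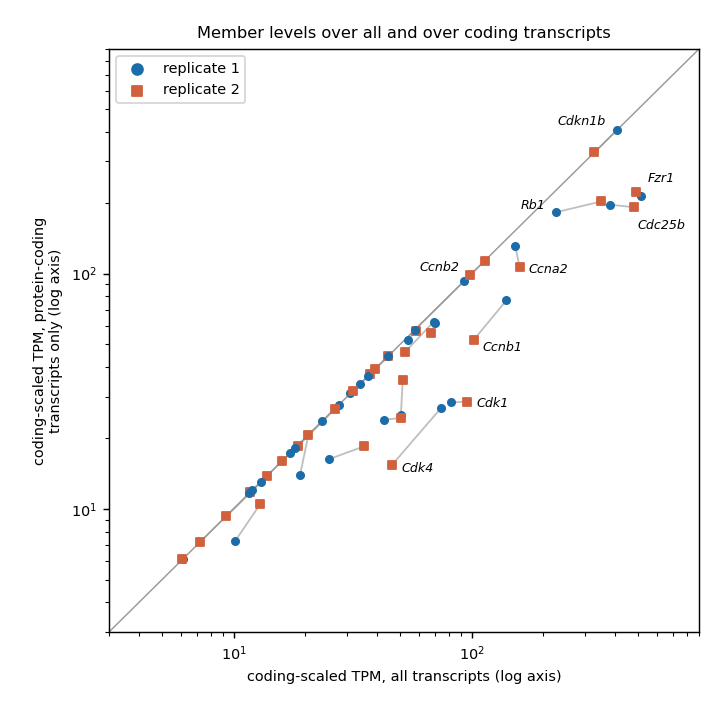
Coding-scaled TPM over all transcripts (x) against protein-coding transcripts only (y), both on log axes, for members with a mean above 5; circles are replicate 1, squares replicate 2, grey lines join the libraries of a gene and the diagonal marks equality. Cdk1 and Cdk4 lie furthest below the diagonal in proportion, and Cdkn1b and Ccnb2 lie on it.

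One transcript held over 50% of the gene in both libraries in 12 of the 22 members with 2 or more annotated transcripts and at least 20 counts (54.5%), against 48.2% of 7089 protein-coding genes. The leading transcript held 100% ± 0 of Ccnd1 and of Cks1b, 81.7% ± 5.39 of Ccne2 (Ccne2-202), 78.4% ± 2.03 of Cdkn2c (Cdkn2c-202), 76.3% ± 13.3 of Ccna2 (Ccna2-201) and 69.2% ± 16.02 of Rb1 (Rb1-201). It held 67.5% ± 5.78 of Cdk2 (Cdk2-202), 62.9% ± 7.80 of Cdkn1b (Cdkn1b-202), 59.2% ± 9.44 of Ccne1 (Ccne1-201), 58.5% ± 8.94 of Rbl2 (Rbl2-201), 58.1% ± 8.95 of Cdk1 (Cdk1-204) and 54.5% ± 4.53 of Cdk6 (Cdk6-202). By the mean over both libraries, Cdk1 and Cdk4 were led by a retained intron transcript. In single libraries such a transcript also led Ccnb1 in replicate 1 and Cdc25b in replicate 2.

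In the other 10, no transcript held over 50% in both libraries. Mean leading shares there ran from 30.1% ± 6.14 for Ccnb1-201 and 38.5% ± 5.51 for Cdc25b-202 to 57.9% ± 28.01 for Ccnd3-205. Between them lay Fzr1-205 (43.6% ± 2.70), Cdk4-209 (47.1% ± 21.8), Ccnh-201 (49.2% ± 10.6), Rbl1-201 (52.0% ± 5.26), Skp2-201 (52.2% ± 10.2), Ccng2-202 (55.2% ± 10.2) and Cdk9-202 (57.8% ± 21.7). The wide errors of Cdk4, Cdk9 and Ccnd3 mean that the libraries divided these genes differently. In the 5 members whose leading transcript held 50% or less, further transcripts reached a mean of 10%. Ccnb1 had the retained intron forms Ccnb1-203 (32.9% and 18.2% in replicates 1 and 2) and Ccnb1-204 (10.3% and 11.8%) and the coding Ccnb1-207 (29.3% and 10.02%). Cdc25b had the retained intron forms Cdc25b-207 (26.7% and 37.1%) and Cdc25b-206 (5.04% and 16.4%). Fzr1 had the retained intron forms Fzr1-206 (20.6% and 26.9%) and Fzr1-204 (21.3% and 21.9%) and Fzr1-201 (16.4% and 5.48%), which is classed as a target of nonsense-mediated decay. These 3 genes were thus split among several forms in both libraries. Cdk4 had the coding Cdk4-201 (17.6% and 27.6%) and Cdk4-204 (17.3% and 5.72%), and Cdk4-208 (0% and 21.4%), also classed as a decay target. Ccnh had 3 further coding forms, Ccnh-202 (18.2% and 28.8%), Ccnh-203 (25.1% and 2.32%) and Ccnh-204 (0% and 27.1%).

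Some of this variety leaves the protein unchanged. Ccnd3-205 and Ccnd3-201 encode the same 292 residues and start 88342 bases apart on the chromosome. Ccnd3-205 held 77.7% in replicate 1 and 38.1% in replicate 2, while Ccnd3-201 held 0% and 45.0%, so the start of Ccnd3 transcripts is unsettled between the libraries even though the gene level was nearly equal. Cdkn1b-202 and Cdkn1b-201 share start, end and the coding sequence of 197 residues, and differ in splicing outside it, with 57.4% and 68.4% for Cdkn1b-202. The 2 Cdk6 transcripts, with 326 residues, and the 2 Cdkn2c transcripts, with 168, also share their coding sequences. Cdk2 differs: Cdk2-202 encodes 346 residues and Cdk2-201 encodes 298, and the longer form held 63.4% and 71.6%. The coding forms with a mean of at least 10% also differ in coding sequence in Ccnb1, Ccne1, Ccne2, Ccnh, Cdk4, Cdk9 and Skp2. Ccne1-201 is annotated with 408 residues and Ccne1-204 with 166, and Ccnh-201 with 323 and Ccnh-203 with 120. All such forms count as protein-coding in the levels restricted to that class.

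The replicates were close for most members. No member was 2-fold apart among the 32 whose counts averaged 100 or more, against 8.49% of 7658 protein-coding genes with such counts. The log2 ratio of replicate 2 over replicate 1, after scaling with TMM factors, ran from -0.91 to 0.99 with a median of -0.02, and the median of those protein-coding genes was -0.04. The 95% interval of counting error alone (exact, Clopper-Pearson) lay above 0 for 10 members (31.3%, against 32.0%) and below 0 for 13 (40.6%, against 37.4%). Each ratio compares 2 single libraries.

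The widest gaps were found in members with modest counts. Cks2 had 441 and 474 counts, a log2 ratio of 0.99 (interval 0.80 to 1.18), and Skp2 had 433 and 372, a ratio of 0.67 (0.46 to 0.87). At the other end Cdc25c had 347 and 100 counts, a ratio of -0.91 (-1.25 to -0.59), and Cdk2 had 922 and 278, a ratio of -0.85 (-1.04 to -0.65). The genes with most counts were closer: -0.29 (-0.33 to -0.26) for Cdkn1b, -0.15 (-0.19 to -0.11) for Fzr1, 0.03 (-0.02 to 0.08) for Cdc25b and 0.13 (0.09 to 0.17) for Rb1. Below the count limit, Ccnd1 had a ratio of 1.96 (1.29 to 2.66) from 28 and 59 counts. For Rb1 the ratio of coding-scaled TPM was larger, at 0.63, and the share of its TPM in retained intron transcripts was 18.0% in replicate 1 and 37.7% in replicate 2.

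**Figure D5:**
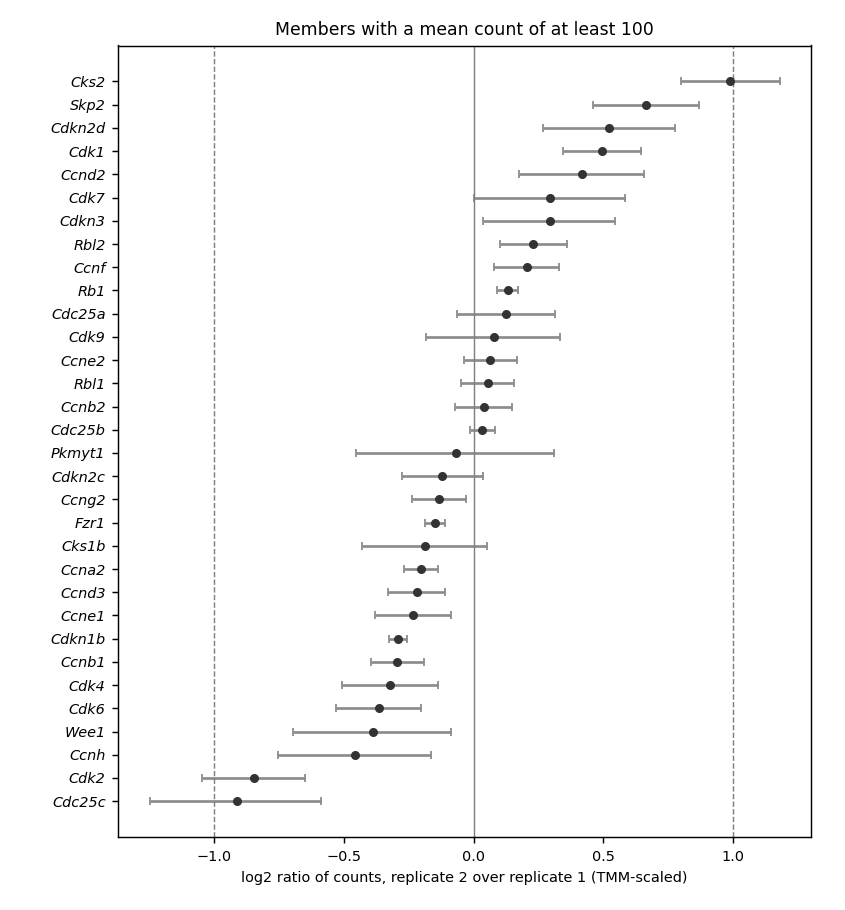
Log2 ratio of TMM-scaled counts, replicate 2 over replicate 1, for the 32 members whose counts averaged 100 or more; bars are exact 95% intervals of counting error and dashed lines mark 2-fold. All points lie between -0.91 and 0.99, with Cks2 highest and Cdc25c lowest.

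The promoters were searched for letters that cell cycle regulators are known to read. RefSeq start regions on GRCm38.p6, 250 bases before to 50 after the start, were found for 27 of the 38 members. The CCAAT box (CCAAT, both strands), bound by NF-Y, was present in 19 of 27 (70.4%), against 41.1% of 27025 genes with such a region. The cell cycle homology region (TTTGAA, both strands), read by the complexes of pocket proteins with MuvB, was present in 8 (29.6%, against 20.2%). An E2F site (TTTCCCGC, TTTCGCGC, TTTGCCGC or TTTGGCGC, both strands) was present in 5 (18.5%, against 2.60%). Carriers include Cdkn2a (E2F site) and Cdkn2b (homology region), which had 0 counts. A match is a description of letters, and binding was not measured. For a selection of the members described above, the site nearest the start is shown, with the matched letters in capitals. Other carriers, such as Skp2, are not shown.
Cdk1, cell cycle homology region, chr10:69352911-69352938, minus strand: accgcggcgagTTTGAAactgctggcac
Ccnf, cell cycle homology region, chr17:24251407-24251434, minus strand: ctcccggcgcgTTTGAAaacggggcggg
Cks1b, cell cycle homology region, chr3:89418292-89418319, minus strand: cgggcggtgtgTTTGAAagcgaggccaa
Ccnb2, cell cycle homology region, chr9:70421534-70421561, minus strand: gcggcgcggtaTTTGAAtcgcggaccgg
Rbl1, E2F site, chr2:157204534-157204563, minus strand: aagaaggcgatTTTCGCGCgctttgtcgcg
Cdc25a, E2F site, chr9:109875501-109875530, plus strand: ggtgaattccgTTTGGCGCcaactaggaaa
The median level of members with and without the letters was 37.4 against 46.8 coding-scaled TPM for the homology region, 21.8 against 41.2 for the E2F site and 40.6 against 38.5 for the CCAAT box.

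Other genes of the same pathway were widely expressed as well. Of 76 further genes, among them E2F factors, subunits of the anaphase-promoting complex, other cyclins and other CDKs, 50 (65.8%) were detected and 72 reached 1 coding-scaled TPM. Their median level was 24.7 in replicate 1 and 27.7 in replicate 2. The highest were Tfdp2, a partner of E2F, at 2002 ± 96.5, the E2F factor E2f2 at 372 ± 17.0, the transcription kinase Cdk12 at 297 ± 30.04, the splicing-linked cyclin Ccnl2 at 206 ± 12.8 and Ube2c, the ubiquitin-conjugating enzyme of the anaphase-promoting complex, at 178 ± 69.3. The lowest were Cdk14 at 1.00 ± 0.595, Cdk18 with 0 and 9 counts, and Cdk20 with 0 counts in both libraries. Of the 66 whose counts averaged 100 or more, 2 were 2-fold higher in replicate 2 (Fbxo5 and Anapc2), against 2.96% of protein-coding genes. Another 2 were higher in replicate 1 (Mastl and E2f3), against 5.52%. These 4 names were chosen after their values were seen.

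Exons of 14 members overlap exons of a gene on the opposite strand, 11 of them a protein-coding gene. The share of all genes with such an overlap was not computed. Ccnd1, with few counts, shares 1100 bases with LTO1, and Rb1 shares 488 with Rcbtb2 and 408 with Lpar6. Cdk4 shares 641 bases with Tspan31, Ccna2 shares 510 with Exosc9 and Rbl2 shares 693 with Aktip. Whether the authors counted reads by strand is not given in the sources used here, so in those stretches reads of the partners cannot be told apart. No member had a posterior standard deviation above 3 times the square root of its count, the limit used for reads shared with similar sequences. That limit is wide. The deviation was above 0 only in Cks2 (4.64 and 9.57 in replicates 1 and 2), Ccnb1 (1.41 and 1.87) and Ccnd3 (0 and 0.11).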

How the data were processed

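Total RNA of 2 erythroblast libraries (1 group, replicates 1 and 2 per the labels) was analysed. Per the deposited text records the assembly was mm10 with genome annotation M4. Which programs aligned and quantified the reads is not given in the sources used here. The tables deposited by the authors hold, per the file headers, expected counts (estimated, not whole), TPM to 2 decimals, posterior standard deviations (score-like, in counts) and, per transcript, the percent of the gene's TPM.

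Symbols, coordinates and transcript classes came from GENCODE M21, also on GRCm38. It matched 42462 of 43346 Ensembl genes and all 148 transcripts of the members. A further 26345 features name no Ensembl gene, held 8 and 28 counts (2.14e-05% and 0.000125%) and were left out. Counts were rounded and scaled with TMM factors (edgeR 4.0.16, R 4.3.3), and DESeq2 1.42.0 size factors were an alternative. Intervals are exact Clopper-Pearson at 95%, which cover counting error only, since reads without molecular identifiers are not independent molecules. The calculation was tested on simulated data. Python 3.11.15, pandas 2.3.3, numpy 2.4.6 and matplotlib 3.10.9 were used.

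All 38 members are named, with the 5 highest and 3 lowest of 76 pathway genes and each leading transcript. Members, lists and marker genes were chosen with earlier results of these data known. Levels from protein-coding transcripts only, and the same restriction on the counts of members, were added after the data were seen. Of the other marker lists, megakaryocyte genes summed to 122 and 144 coding-scaled TPM and stem and progenitor genes to 36.7 and 39.2 in replicates 1 and 2.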

Additional observations from a re-analysis of the deposited data

How the results depend on the processing

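The number of members 2-fold apart between the libraries depended on the scaling and the count limit. It was 0 with TMM, with DESeq2 size factors, with the ratio of coding-scaled TPM and with protein-coding transcripts only. It was 1 with library size only (Cdc25c), 9 with the ratio of deposited TPM, 1 with a mean count of at least 10 (Ccnd1) and 1 with no filter on counts (Ccnd1). Deposited TPM is a share of all RNA, and the nuclear protein-coding genes held 11.3% of it in replicate 1 and 6.89% in replicate 2. The number of members detected ran from 24 to 34 over its alternatives, with 24 from replicate 2 alone and 29 from replicate 1 alone. The number of pathway genes detected was 51 and 59 from those single libraries. Families with 1 leading member numbered 9 in each alternative over both libraries, but not the same families and leaders: by expected counts the E-type cyclins (Ccne2) took the place of the CKS subunits, and by protein-coding transcripts Ccnb2 replaced Ccnb1. The number was 11 and 10 in replicates 2 and 1 alone. Members with 1 transcript above 50% numbered 11 by posterior mean percent, 11 with at least 100 counts, 13 in replicate 2 alone and 18 in replicate 1 alone. Leaving the adult globins and Gm10800 out of the scaling multiplies all levels of a library by 1 factor and leaves their order within it (Fzr1 from a mean of 500 to 798, Ccnd1 from 1.35 to 2.11). Protein-coding transcripts alone moved the level of 13 members by more than 1 SD. No paired analysis was possible because there is 1 group. Depth limits Ccnd1, Cdk5 and Cdkn1c, which had under 100 counts in each library, and the 3 members at 0.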
